A study of Homo sapiens with 46 samples.

Results

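Endoderm cells were compared here between the RNA that stayed in the chromatin pellet and the RNA released into the nucleoplasm, with 3 libraries of each fraction, 6 of the 46 libraries of the study. The cells came from H1, an established line of human pluripotent stem cells, cultured in RPMI with 0.5% FBS, WNT3A and 100 ng/ml activin A, which drive formation of definitive endoderm. For both groups no genetic change is named in the labels; cells were lysed with 0.05% NP-40, and the nuclei were collected through sucrose. Nuclei were then opened in a buffer with 1% NP-40 and 1 M urea: the supernatant was taken as nucleoplasm and the pellet as chromatin, and the cytoplasmic lysis, sucrose, nuclear resuspension and nuclear lysis buffers all held 25 µM α-amanitin, a blocker of RNA polymerase II. Each gene is described by its summed transcript counts, and all 13644 Ensembl genes of the endoderm table were taken; 12681 had counts high enough to be tested and 963 did not. The H1 line is a single line, and the labels do not say whether replicate libraries came from separate cultures, so the p-values measure the spread between these libraries, which may be technical. In bulk samples, fewer cells of a type and less RNA per cell cannot be told apart.

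RNA polymerase II transcripts are spliced largely while they are still attached to the template, and most finished mRNA leaves chromatin, crosses the nucleoplasm and passes the nuclear pore. Chromatin pellets are therefore known for unspliced and partly spliced transcripts and for noncoding RNAs tethered to their genes. The outer nuclear membrane is continuous with the endoplasmic reticulum, where ribosomes that make secreted and membrane proteins are docked, and mitochondria hold their own transcripts outside the nucleus. A nucleoplasm prepared with detergent is defined by solubility and not by a membrane.

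Definitive endoderm genes were present in both fractions. Per transcript length, on the authors' TPM scale, SOX17 had a mean of 82.7 in chromatin and 37.9 in nucleoplasm, GATA4 90.7 and 39.3, FOXA2 35.2 and 24.3, and EOMES 17.5 and 11.3. Of the 20 endoderm markers looked for, 19 were in the table and FOXA1 was not analysed here. Pluripotency genes were also at a high level, with POU5F1 at 374 and 347 TPM and LIN28A at 183 and 193. The mesoderm genes HAND1 (20.6 and 20.3 TPM) and KDR (32.7 and 59.1) were detected, and TBXT was at 2.69 and 1.26. The ectoderm gene PAX6 was near the detection limit, but ZIC2, also an ectoderm gene, was not. ZIC2 was at 88.9, 83.7 and 107 CPM in chromatin and 77.5, 82.2 and 87.9 in nucleoplasm. These ZIC2 values are counts scaled to library size, from the fit of 18 libraries used below to compare cell types. The summed endoderm list took 0.0603% ± 0.00565 of counts in chromatin and 0.0575% ± 0.00284 in nucleoplasm (SD, n = 3), with overlap between the groups; the corresponding values were 0.172% ± 0.000914 and 0.164% ± 0.00124 for the pluripotency list, 0.0179% ± 0.00297 and 0.0326% ± 0.00216 for the mesoderm list and 0.0741% ± 0.00347 and 0.0619% ± 0.00632 for the ectoderm list. By these means, the 4 ectoderm genes took a larger share than the 19 endoderm genes in both fractions. The part of the other lineages' cells in the fraction differences below was not tested.

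Chromatin libraries held 7899619 to 12316044 counts and nucleoplasm libraries 13111204 to 14380588. Values below are CPM, counts scaled to library size after TMM, which centres the libraries on genes of middling change. TMM factors were 1.18 to 1.24 in chromatin and 0.781 to 0.792 in nucleoplasm, so TMM and plain total counts differ by 0.62 on the log2 scale for the median gene. Counts with total counts are given beside those with TMM for the gene lists; transcripts, the cytoplasm-nucleus contrast and the differences between cell types are given with TMM alone. A fall that holds with total counts is a fall of the gene's share in the library as sequenced. One nuclear library, replicate 1, had a TMM factor of 0.621 against 0.884 and 0.921 in the other nuclear libraries; it enters the comparison through the filter, the scaling and the estimate of spread. Without the nuclear and cytoplasmic libraries, the same test called 8067 genes in place of 6812, over 12266 genes tested.

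Of the genes tested, 53.7% differed between the fractions at an adjusted p under 0.05 (edgeR's quasi-likelihood test, Benjamini-Hochberg): 2919 (23.0%) were higher in chromatin and 3893 (30.7%) lower. With total counts 5382 genes (42.4%) were higher and 1739 (13.7%) lower, so that the share of calls that were higher moved from 42.9% to 75.6%. All 2919 genes called higher with TMM were also higher with total counts, and all 1739 genes called lower with total counts were also lower with TMM. The 3 chromatin and 3 nucleoplasm libraries did not overlap for 68.6% of the genes. A change of at least 2-fold was reached by 1643 of the genes called higher (13.0%) and 2246 of those called lower (17.7%). The median log2 change of all genes tested was -0.12 with TMM and 0.50 with total counts.

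The coding genes at both extremes are shown by sequence, chosen after their values were seen to show their base composition. Among the 12 largest rises were MAMDC4 (a MAM-domain endocytic protein), KIF12 (a kinesin motor) and AGER (a receptor for glycated proteins), and COL7A1, the collagen of anchoring fibrils, was the highest of the matrix genes. Among the 12 largest falls were LUM (lumican, a matrix proteoglycan) and NUCB2 (a secreted calcium-binding protein), and HSP90B1, the HSP90 chaperone of the endoplasmic reticulum, was the lowest of its list. The middle 120 bases of each coding sequence were read from the GENCODE 29 transcripts (GRCh38), with G and C in capitals: MAMDC4 at chr9:136856301-136856502 (+ strand, coding bases 1765 to 1884 of 3648, 65.0% GC), KIF12 at chr9:114095106-114095311 (- strand, coding bases 917 to 1036 of 1953, 65.0% GC), COL7A1 at chr3:48583133-48583600 (- strand, coding bases 4357 to 4476 of 8832, 69.2% GC), NUCB2 at chr11:17310912-17311213 (+ strand, coding bases 571 to 690 of 1260, 28.3% GC), LUM at chr12:91108413-91108532 (- strand, coding bases 448 to 567 of 1014, 43.3% GC) and HSP90B1 at chr12:103941462-103941662 (+ strand, coding bases 1145 to 1264 of 2409, 40.8% GC). The coordinates span any introns between the exons. Over the whole coding sequence, GC was 66.9% in MAMDC4, 65.0% in KIF12 and 65.0% in COL7A1. It was 37.1% in NUCB2, 41.8% in LUM and 41.3% in HSP90B1, so the stretches of COL7A1 and NUCB2 lie further apart than the genes do.
MAMDC4: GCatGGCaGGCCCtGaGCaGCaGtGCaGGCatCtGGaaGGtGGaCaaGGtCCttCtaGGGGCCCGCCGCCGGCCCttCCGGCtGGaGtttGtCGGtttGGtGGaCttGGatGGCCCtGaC
KIF12: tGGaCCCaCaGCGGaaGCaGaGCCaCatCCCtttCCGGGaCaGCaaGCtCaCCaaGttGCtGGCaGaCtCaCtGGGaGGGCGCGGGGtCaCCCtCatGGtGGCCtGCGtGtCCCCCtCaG
COL7A1: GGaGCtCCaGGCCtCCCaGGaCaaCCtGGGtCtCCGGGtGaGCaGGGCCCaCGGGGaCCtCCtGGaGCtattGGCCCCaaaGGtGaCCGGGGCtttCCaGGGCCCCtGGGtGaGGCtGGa
NUCB2: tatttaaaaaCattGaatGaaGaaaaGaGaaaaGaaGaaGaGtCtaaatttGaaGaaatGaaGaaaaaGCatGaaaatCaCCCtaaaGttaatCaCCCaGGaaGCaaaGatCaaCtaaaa
LUM: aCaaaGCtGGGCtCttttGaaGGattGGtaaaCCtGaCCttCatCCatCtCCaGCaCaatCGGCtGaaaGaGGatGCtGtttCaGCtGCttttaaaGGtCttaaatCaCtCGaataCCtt
HSP90B1: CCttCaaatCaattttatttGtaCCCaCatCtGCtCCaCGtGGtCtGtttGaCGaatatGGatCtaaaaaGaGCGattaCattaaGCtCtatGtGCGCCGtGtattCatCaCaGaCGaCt

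MAMDC4 stood at 96.8, 97.6 and 103 CPM in the chromatin libraries and 7.45, 6.34 and 5.00 in the nucleoplasm libraries (log2 change 3.98, SE 0.26, adjusted p = 1.81e-08). KIF12 was at 48.8, 38.6 and 53.5 against 5.21, 3.62 and 2.00 CPM (log2 change 3.69, SE 0.30), and COL7A1 at 113, 94.3 and 114 against 9.51, 8.69 and 8.70 (3.58, SE 0.24). Every chromatin library lay above every nucleoplasm library for these genes. NUCB2 was the reverse, with 6.02, 5.04 and 3.58 CPM in chromatin and 90.1, 81.6 and 92.7 in nucleoplasm (log2 change -4.17, SE 0.22, adjusted p = 8.6e-09). LUM was at 2.76, 3.25 and 2.78 against 52.1, 52.6 and 61.7 CPM (log2 change -4.25, SE 0.29), again without overlap. Neither NUCB2 (0.13) nor LUM (0.10) passed the test between cytoplasm and nucleus in the same cells.

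**Figure D1:**
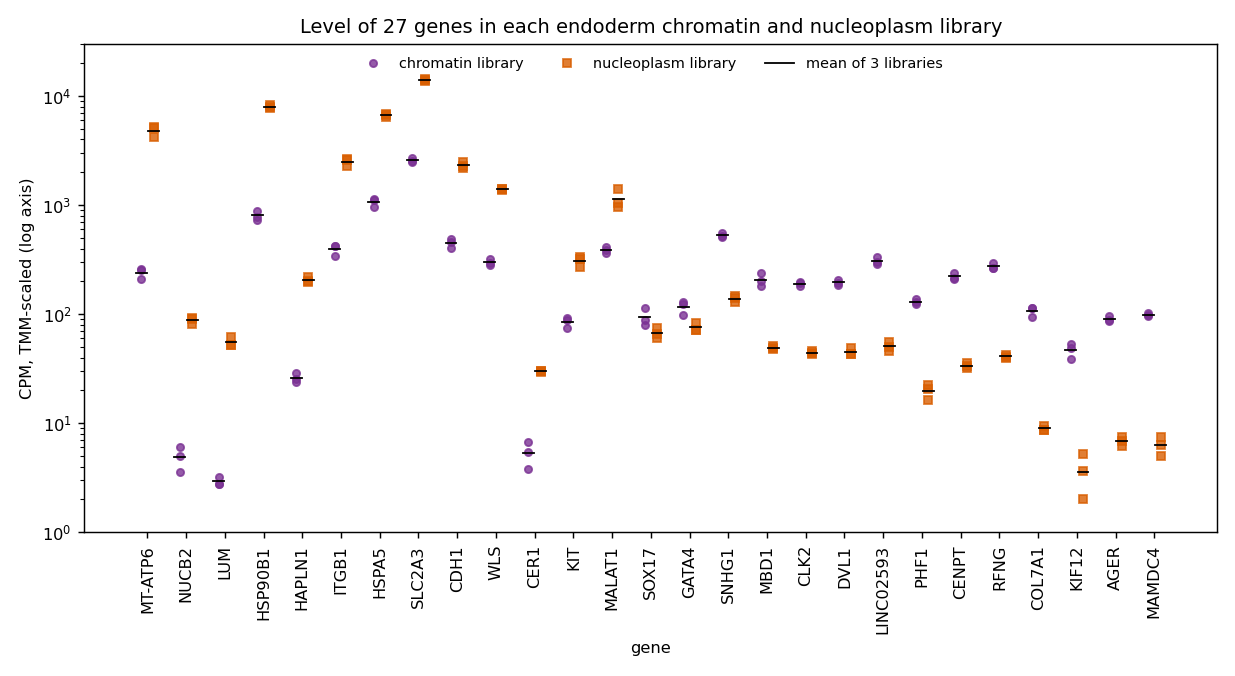
CPM after TMM scaling (log axis) of 27 genes in each of the 3 chromatin (circles) and 3 nucleoplasm (squares) endoderm libraries, with the mean of each group as a bar. Genes run from the mitochondrial, secretory and membrane mRNAs that were lower in chromatin, such as HSP90B1, to those higher in chromatin, such as MAMDC4; the groups do not overlap for any gene drawn.

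Mitochondrially encoded mRNAs fell most as a group. All 13 were lower in chromatin, with log2 changes of -4.33 to -3.02 and a median of -3.74, and all 13 also fell with total counts. MT-ATP6, a subunit of ATP synthase, was at 253, 208 and 258 CPM in chromatin and 5074, 4174 and 5236 in nucleoplasm (log2 change -4.33, SE 0.48, adjusted p = 2.42e-06). MT-CO1, a subunit of cytochrome oxidase and the most abundant of them by counts, was at 4023, 3614 and 3300.1 against 45299.9, 39756 and 47454 CPM (log2 change -3.60, SE 0.37). The nucleoplasm libraries were far above the chromatin libraries for both genes, with no overlap. Mitochondrial genes made up 1.54, 1.32 and 1.36% of counts in the chromatin libraries and 11.4, 10.2 and 11.9% in the nucleoplasm libraries. That share was 11.6% ± 4.11 in the nuclear and 0.436% ± 0.0212 in the cytoplasmic libraries (SD, n = 3), and all 13 mRNAs were lower in cytoplasm than in nucleus. MTCO1P12, a nuclear pseudogene copied from MT-CO1, moved with them (-3.72), but its reads cannot be told apart from those of its near-identical source.

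Genes of protein entry and folding in the endoplasmic reticulum followed. Of 36 tested, 34 fell, none rose, and 31 still fell with total counts, beside 30.7% of all genes lower (13.7% with total counts). Log2 changes ran from -3.31 to -0.35, with a median of -1.38 by total counts. HSP90B1 was at 891, 784 and 733 CPM in chromatin and 8188, 7696 and 7984 in nucleoplasm (log2 change -3.31, SE 0.25, adjusted p = 5.65e-08). HSPA5, the HSP70 chaperone BiP, was at 1125, 1138 and 962 against 6819, 6434 and 6703 (log2 change -2.63, SE 0.18). Both chaperones were low in every chromatin library and high in every nucleoplasm library. The lectin chaperones CANX (-2.66) and CALR (-2.23), the disulfide isomerases PDIA6 (-2.56) and P4HB (-1.54), the translocon subunits SEC61A1 (-1.34) and SEC61B (-1.57) and the translocon-associated proteins SSR1 (-2.56) and SSR2 (-2.34) all fell. Of the list, SRP72, a protein of the cytosolic signal recognition particle, had the smallest change (-0.35, adjusted p = 0.183). The summed list took 0.868% ± 0.0675 of counts in chromatin and 3.01% ± 0.0498 in nucleoplasm.

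Adhesion and matrix mRNAs were lower in chromatin too, beside 30.7% of all genes lower (13.7% with total counts) and 23.0% higher. Of the integrins, cadherins and protocadherins, 48 of 69 fell (38 with total counts) and 3 rose, with a median of -1.40. ITGB1, the common integrin beta chain, was at 422, 417 and 344 CPM in chromatin and 2651, 2276 and 2591 in nucleoplasm (log2 change -2.67, SE 0.26, adjusted p = 7.5e-07). CDH1, the epithelial cadherin, was at 456, 486 and 403 against 2508, 2197 and 2263 (log2 change -2.37, SE 0.17). Both separated the fractions fully. ITGA2B, the platelet integrin alpha chain, was the largest rise (2.35, SE 0.29) at 11.6 ± 0.961 against 2.26 ± 0.226 CPM (SD, n = 3). Of collagen, laminin and other matrix genes 37 of 50 fell (22 with total counts) and 4 rose. FN1, fibronectin, was at 26925, 32974 and 22608 CPM in chromatin and 71655, 62203 and 64191 in nucleoplasm (log2 change -1.26, SE 0.26, adjusted p = 0.000805). HAPLN1, which links hyaluronan to proteoglycans, fell most of this list (-2.99), while COL18A1, whose fragment is endostatin, did not pass the test (-0.57, adjusted p = 0.103), and did with the 6 chromatin and nucleoplasm libraries alone (-0.46, adjusted p = 0.00129). Of the laminin chains, LAMC1 (-1.88) and LAMB1 (-1.06) fell, LAMA1 was at -0.18 (adjusted p = 0.416) and LAMA5 rose (0.68), a call lost without nucleoplasm replicate 2 (0.65, adjusted p = 0.0559) or chromatin replicate 1 (0.60, adjusted p = 0.0585).

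Transporters of the SLC family other than SLC25 were more mixed: 78 of 151 fell (45 with total counts) and 24 rose (45). SLC2A3, the glucose transporter GLUT3, was at 2469.6, 2549.7 and 2708 CPM in chromatin and 14086, 13654 and 14261 in nucleoplasm (log2 change -2.44, SE 0.22, adjusted p = 4.17e-07), and SLC3A2, the heavy chain of amino acid transporters, was at 943, 776 and 685 against 2303, 2427 and 2456 (log2 change -1.58). The groups did not overlap for either. SLC25 carriers of the mitochondrial inner membrane, whose mRNAs are nuclear, had 7 of 40 lower (1 with total counts), 9 higher (25) and a median of 0.16. Beside them, 30.7% of all genes were lower (13.7% with total counts) and 23.0% higher (42.4%). With TMM the SLC25 genes thus rose about as often as all genes. Of the 24 genes of cholesterol synthesis and uptake 13 fell (9 with total counts) and 3 rose (6), among them the cytosolic enzyme MVD (1.15, SE 0.18).

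The factors that define endoderm lay on either side. Of the 19 genes of the list, 3 rose (10 with total counts) and 5 fell (5), and the median of -0.09 was near that of all genes. Over all genes 23.0% rose and 30.7% fell (42.4% and 13.7% with total counts), so with TMM the list was called no more often than the background. SOX17 was at 114, 79.6 and 88.8 CPM in chromatin and 65.9, 61.1 and 74.5 in nucleoplasm (log2 change 0.49, SE 0.17, adjusted p = 0.0264), a small difference without overlap. The SOX17 call was lost without nucleoplasm replicate 1 (0.47, adjusted p = 0.0781), nucleoplasm replicate 2 (0.42, adjusted p = 0.105) or chromatin replicate 1 (0.33, adjusted p = 0.147). GATA4 was at 129, 98.5 and 124 against 72.1, 83.2 and 71.6 (log2 change 0.63, SE 0.16), and PRDM1, which encodes the repressor BLIMP1, rose by a like amount (0.68, SE 0.19). FOXA2 (-0.09), GATA6 (0.06) and EOMES (0.14) did not pass the test with TMM, and each did with total counts, at 0.53, 0.68 and 0.77. The 5 that fell encode secreted or surface proteins: CER1, a secreted Nodal antagonist, was at 6.66, 3.81 and 5.41 CPM in chromatin and 30.2, 29.3 and 29.9 in nucleoplasm (log2 change -2.47, SE 0.22, adjusted p = 3.66e-07). The receptor tyrosine kinase KIT was at 88.8, 92.4 and 74.4 against 335, 272 and 322 (log2 change -1.86), the chemokine receptor CXCR4 fell by 1.61 and NODAL by 1.25 on the log2 scale. All chromatin libraries lay below all nucleoplasm libraries for these 4 genes. LEFTY2, the fifth, was close to the detection limit, with 0.396 ± 0.457 and 1.99 ± 0.369 CPM. LEFTY1, which also encodes a secreted protein and is on the same list, was not called lower.

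Within signalling pathways, members on both sides were found. In the Nodal and activin pathway, 12 of 19 genes fell (9 with total counts) and 2 rose (4). Of all genes, 30.7% fell (13.7% with total counts) and 23.0% rose (42.4%), so members of this pathway rose less often. The ligand GDF3 (-2.90), the co-receptors TDGF1 (-1.71) and CFC1 (-1.78), the receptors ACVR2A (-1.54), ACVR2B (-1.37) and ACVR1B (-1.16) and the DNA-binding partner FOXH1 (-0.90) fell. The transducers SMAD2 (0.36) and SMAD4 (0.28) did not pass the test, but did with the 6 chromatin and nucleoplasm libraries alone (0.48 and 0.39, adjusted p = 0.000484 and 0.00253), and SMAD3 (0.68) and the inhibitory SMAD7 (0.79) rose. TDGF1 was at 79.0, 81.7 and 72.4 CPM in chromatin and 256, 267 and 241 in nucleoplasm, and SMAD7 at 93.1, 79.8 and 95.2 and 51.7, 55.5 and 47.7, each without overlap and in opposite directions.

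The WNT list had 12 of 26 genes lower (5 with total counts) and 6 of 26 higher (9), the latter no more often than the 23.0% of all genes. WLS, the carrier of WNT ligands through the secretory pathway, was at 293, 319 and 285 CPM in chromatin and 1401, 1385 and 1398 in nucleoplasm (log2 change -2.22, SE 0.20, adjusted p = 4.31e-07). The antagonists SFRP1 (-2.18) and DKK1 (-1.60), the receptors FZD6 (-1.65) and FZD7 (-0.98) and the co-receptor LRP5 (-0.88) also fell. All 3 Dishevelled genes, cytosolic relays of the receptor, rose, with DVL1 at 184, 195 and 207 CPM in chromatin and 43.0, 43.5 and 49.0 in nucleoplasm (log2 change 2.11, SE 0.13, adjusted p = 1.32e-08), DVL3 (1.53) and DVL2 (1.06). The scaffolds AXIN1 (0.84) and AXIN2 (0.86) and the nuclear effector TCF7 (1.22) rose as well, while CTNNB1, beta-catenin, was at -0.44 (adjusted p = 0.122; -0.32 and 0.00433 with the 6 chromatin and nucleoplasm libraries alone). The relay, scaffold and receptor members were named after their values were seen.

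In the remaining pathways, 8 of 15 BMP genes fell (3 with total counts), led by the ligand BMP4 (-1.43), and the inhibitory SMAD6 (0.85) and the target ID1 (0.54) rose, the latter not without chromatin replicate 1 (0.41, adjusted p = 0.0615). Of Eph receptors and ephrins, which signal between touching cells, 12 of 15 fell (6 with total counts) and none rose. In the Notch list 5 of 12 fell (1 with total counts) and 2 rose (4); those that fell include the receptors NOTCH2 (-1.47) and NOTCH3 (-0.90). Over all genes 30.7% fell (13.7% with total counts) and 23.0% rose (42.4%), so the Notch genes rose no more often. In the FGF list 4 of 21 fell (1 with total counts) and 1 rose (9), with TMM both below the shares of all genes. RFNG, a Golgi glycosyltransferase of Notch, was at 264, 267 and 295 CPM in chromatin and 42.6, 39.8 and 40.3 in nucleoplasm (log2 change 2.75, SE 0.14, adjusted p = 8.6e-09). RFNG and the FGF receptor FGFR3 (1.54, SE 0.16) both encode membrane proteins and both rose. FGFR3 was at 1397, 1356 and 1516 against 473, 477 and 515 CPM, and the most abundant FGF receptor by counts, FGFR1, did not pass the test (0.39, adjusted p = 0.0704). FGFR1 passed with the 6 chromatin and nucleoplasm libraries alone (0.51, adjusted p = 0.000143) and with DESeq2 (0.45, adjusted p = 0.00204).

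**Figure D2:**
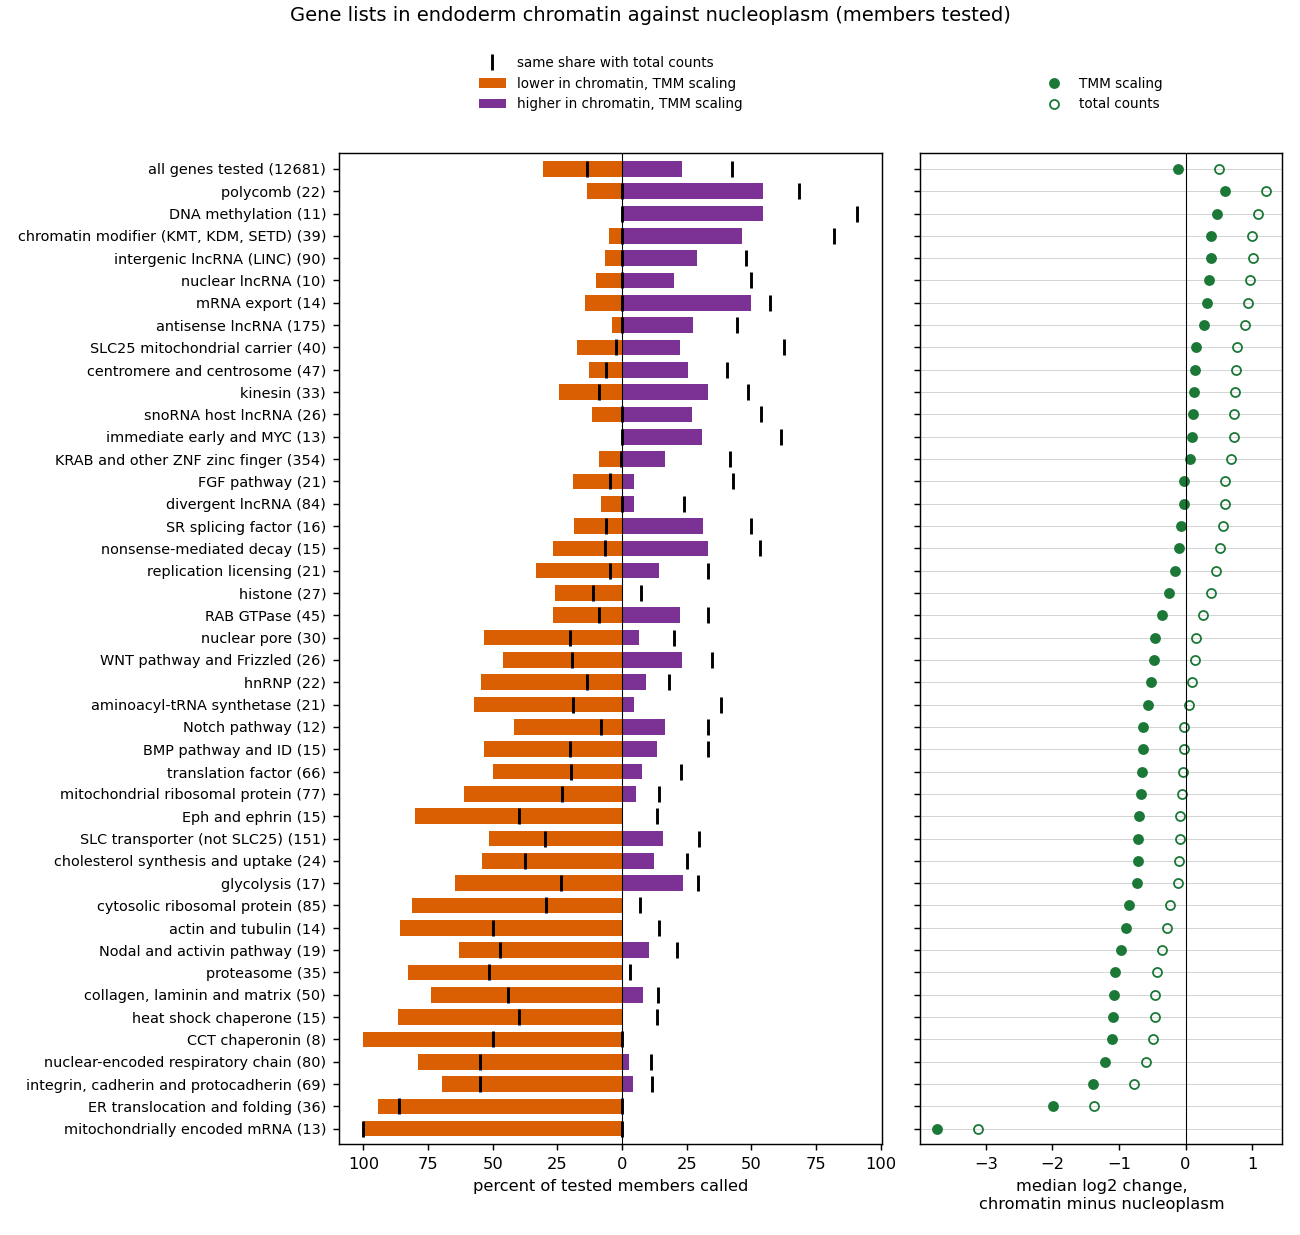
Left, percent of tested members of each gene list called lower (to the left of 0) or higher (to the right) in endoderm chromatin than in nucleoplasm with TMM scaling, and the same with total counts as black ticks; right, the median log2 change of each list under both scalings. Mitochondrially encoded mRNAs and the endoplasmic reticulum list lie lowest under both scalings, at -3.12 and -1.38 with total counts, and the polycomb list is the highest of the lists drawn, which leave out the CLK kinase and small structural RNA lists of 3 genes and the lineage lists, at 1.21.

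Housekeeping mRNAs of the cytosol were lower in chromatin with TMM and less clearly so with total counts. All genes tested were lower in 30.7% of cases with TMM and 13.7% with total counts. Of 85 ribosomal protein genes 69 fell with TMM, and with total counts 25 fell and 6 rose; the medians were -0.85 and -0.23. Their share of counts was 1.48% ± 0.277 in chromatin and 1.70% ± 0.0405 in nucleoplasm, with overlap. Nuclear genes of the respiratory chain (63 of 80 lower, 44 with total counts), the proteasome (29 of 35, 18), the CCT chaperonin (8 of 8, 4) and cytosolic heat shock chaperones (13 of 15, 6) had more falls that held under both scalings. HSP90AA1, the inducible cytosolic HSP90, was at 351, 362 and 289.6 CPM in chromatin and 1403, 1351 and 1318 in nucleoplasm (log2 change -2.02, SE 0.30, adjusted p = 4.77e-05). EEF1A1, the elongation factor that brings tRNA to the ribosome, was at 2339, 2461 and 1992 against 4872, 5115 and 4989.9 (log2 change -1.14). ACTB was at 1004, 1100.3 and 976 against 2419, 2582 and 2469 (-1.28) and GAPDH at 465 ± 40.5 against 993 ± 86.8 CPM (-1.09; SD, n = 3). The groups did not overlap for any of these genes.

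The cytoplasmic and nuclear libraries of the same cells, which are not among the 6 compared above, divided the genes lower in chromatin. In that second contrast 34.4% of all genes were higher in cytoplasm and 35.6% lower. Of the 3893 genes lower in chromatin, 1794 (46.1%) were higher in cytoplasm and 1444 (37.1%) were lower. Ribosomal protein genes were 79 of 85 higher in cytoplasm and proteasome genes 30 of 35. In the lists of membrane and secreted proteins most genes were lower in cytoplasm than in nucleus: 21 of 36 endoplasmic reticulum genes, all 50 matrix genes, 61 of 69 adhesion genes, 126 of 151 SLC genes and 14 of 15 Eph and ephrin genes were. The endoplasmic reticulum list was divided, with 8 genes lower in chromatin and higher in cytoplasm. FN1 had a cytoplasm-nucleus log2 change of -5.58, HSPA5 of -4.69 and CDH1 of -4.26, whereas HSP90AA1 had 2.95 and EEF1A1 1.48. The matrix, adhesion, SLC, Eph and endoplasmic reticulum lists held 321 coding members among the 12681 genes tested. They made up 178 of the 1444 genes (12.3%) low in both chromatin and cytoplasm. Members were 11 of the 1794 (0.613%) low in chromatin and high in cytoplasm. They were 31 of the 2032 (1.53%) high in chromatin and low in cytoplasm, and none of the 144 high in both. Of the 2919 genes higher in chromatin, 2032 (69.6%) were lower in cytoplasm and 144 (4.93%) were higher. The part of membranes that stay with nuclei was not tested.

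Lists of nuclear proteins went both ways, beside 23.0% of all genes higher and 30.7% lower. Of 30 nuclear pore genes 16 fell (6 with total counts) and 2 rose (6), of 22 hnRNP genes, which package nuclear RNA, 12 fell (3) and 2 rose (4), and of 27 histone genes 7 fell (3) and none rose (2). Of 39 histone lysine methyltransferases and demethylases 18 rose and 2 fell, and with total counts 32 rose and none fell. Of 22 polycomb genes, which silence developmental genes, 12 rose (15 with total counts) and 3 fell (none). PHF1, a partner of the methyltransferase complex PRC2, was at 125, 129.7 and 137 CPM in chromatin and 20.7, 22.3 and 16.3 in nucleoplasm (log2 change 2.72, SE 0.19, adjusted p = 2.63e-08), and PHC1, a subunit of the ubiquitin ligase complex PRC1, at 474, 595 and 496 against 219.7, 195 and 202 (log2 change 1.34). Both were higher in every chromatin library. The catalytic subunits EZH1 (0.80) and EZH2 (0.83) rose, whereas RNF2 (-0.71), the ubiquitin ligase of PRC1, and JARID2 (-0.43) fell with TMM and not with total counts (adjusted p = 0.834 and 0.271). The RNF2 call was lost without any one of 4 libraries (nucleoplasm 2 and 3, chromatin 2 and 3; adjusted p = 0.0809 to 0.122) and the JARID2 call without any one of 5 (all but chromatin replicate 2; adjusted p = 0.0559 to 0.101).

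Of the DNA methylation list 6 of 11 genes rose (10 with total counts) and none fell. Among all genes 23.0% rose (42.4% with total counts) and 30.7% fell (13.7%). MBD1, which binds methylated DNA, was at 179.7, 237 and 199 CPM in chromatin and 51.3, 47.5 and 48.6 in nucleoplasm (log2 change 2.06, SE 0.15, adjusted p = 3.81e-08), while the methyltransferases DNMT1 (0.18) and DNMT3B (0.18) did not pass the test with TMM, but did with total counts and with the 6 chromatin and nucleoplasm libraries alone (0.30 and 0.29, adjusted p = 0.00693 and 0.0153). For mRNA export 7 of 14 rose (8 with total counts) and 2 fell (none), led by the export receptor NXF1, at 131, 162 and 160.1 against 54.1, 49.8 and 52.3 CPM (log2 change 1.54, SE 0.13). Of the CLK kinases, which phosphorylate SR splicing factors, CLK2 was at 180.5, 196 and 194 CPM in chromatin and 46.0, 43.9 and 42.8 in nucleoplasm (log2 change 2.10, SE 0.13, adjusted p = 1.48e-08) and CLK3 at 68.8, 74.0 and 77.1 against 20.7, 20.7 and 21.4 (1.81), and CLK1 did not pass the test (0.92, adjusted p = 0.0914). CLK1 passed with the 6 chromatin and nucleoplasm libraries alone (1.04, adjusted p = 1.43e-06). SRSF5, an SR factor, rose by 1.59 on the log2 scale, at 829, 809.9 and 804 against 298, 255 and 259 CPM, and SRSF9 fell (-0.97). CENPT, a kinetochore protein that binds centromeric DNA, was at 209, 216 and 240.2 against 32.0, 33.2 and 35.4 CPM (log2 change 2.73, SE 0.18, adjusted p = 2.38e-08), while CENPF, another kinetochore protein, fell (-2.02, SE 0.16). Chromatin and nucleoplasm libraries did not overlap for MBD1, NXF1, CLK2, CLK3, SRSF5 or CENPT.

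Of 354 zinc finger genes of the ZNF family, 58 rose and 32 fell beside 23.0% and 30.7% of all genes; with total counts 147 rose and 1 fell. The immediate early gene FOS, whose mRNA is made and lost within minutes of a stimulus, was higher in chromatin at 27.9 ± 1.46 against 13.5 ± 2.11 CPM (SD, n = 3) (1.05, SE 0.17), and 4 of the 13 genes of its list rose (8 with total counts) and none fell.

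Long noncoding RNAs were a larger part of chromatin. Leaving out the ribosomal DNA loci described below, lncRNA genes took 2.21, 2.06 and 2.18% of counts in the chromatin libraries and 0.927, 0.863 and 0.906% in the nucleoplasm libraries. The exact two-sided permutation p was 0.1, the smallest that 3 against 3 libraries allow (0.125 adjusted over 15 shares). Beside 23.0% of all genes higher and 30.7% lower, 48 of 175 antisense lncRNAs rose (78 with total counts) and 7 fell (none), and 26 of 90 LINC genes rose (43) and 6 fell (none), so that the counts of genes higher were near the background. LINC02593 was at 299, 289 and 337 CPM in chromatin and 55.6, 50.5 and 46.4 in nucleoplasm (log2 change 2.60, SE 0.14, adjusted p = 1.02e-08), and SLC9A3-AS1 at 394, 377 and 454 against 106, 104 and 103 (1.96); the library kit does not mark strand, so reads of an antisense gene and its partner cannot be told apart. SNHG1, a host of small nucleolar RNAs in its introns, was at 520.1, 556 and 514 against 145, 130.3 and 141 CPM (1.93, SE 0.21), and 7 of 26 such hosts rose (14 with total counts), also near the background. FTX, from the X-inactivation centre, was at 232, 177 and 224 against 79.3, 67.5 and 88.6 (1.43), and KCNQ1OT1, the imprinted antisense RNA of KCNQ1, at 7.79, 9.41 and 7.52 against 1.53, 4.34 and 3.50 (1.40; 1.06 and adjusted p = 0.0525 without nucleoplasm replicate 1). MALAT1, the RNA of nuclear speckles, ran the other way, at 388, 365 and 415 CPM in chromatin and 968, 1408 and 1039 in nucleoplasm (log2 change -1.55, SE 0.46, adjusted p = 0.011). With total counts the MALAT1 change was -0.93 and did not pass (adjusted p = 0.173). NEAT1, the other nuclear body RNA looked for, was not analysed here.

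Among other annotated types, 29 of 46 unprocessed pseudogenes, 16 of 26 genes of miscellaneous RNA, 20 of 36 loci awaiting experimental support (TEC) and 26 of 37 miRNA genes rose (71.7, 76.9, 66.7 and 78.4% with total counts). Of all genes tested, 23.0% rose with TMM and 42.4% with total counts. The signal recognition particle RNAs RN7SL1 (53.6, 33.9 and 23.4 against 3.68, 13.4 and 8.50 CPM, log2 change 2.12) and RN7SL2 (2.08) rose, but they are near-identical in sequence, and reads may be split between them and their pseudogenes. Genes with near-identical relatives, such as NPIPA7 (3.64) and KRT16P3 (3.63), carry the same uncertainty.

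MIR6777 and MIR6746, miRNA loci among the largest rises, are shown by sequence because of where they lie. Their hairpins end at the last base of a host intron, so each closes with the AG of the splice acceptor. The hairpin of MIR765, which also rose (3.22, SE 0.23), lies 72 bases from the end of an ARHGEF11 intron and is not shown. MIR6777 is at chr17:17813480-17813545 (minus strand, GRCh38) in intron 18 of SREBF1, a regulator of lipid synthesis, an intron of 89 bases; MIR6746 is at chr11:61878216-61878278 (minus strand) in intron 5 of FADS3, a fatty acid desaturase, an intron of 296 bases. The hairpins are from RefSeq, with the acceptor AG in capitals, followed by their mature arms with the seed, bases 2 to 8, in capitals; no seed is shared among the 4 arms.
MIR6777: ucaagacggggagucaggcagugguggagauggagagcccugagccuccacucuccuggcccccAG
MIR6746: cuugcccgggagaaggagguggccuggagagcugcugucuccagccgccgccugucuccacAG
hsa-miR-6777-5p: aCGGGGAGucaggcaguggugga
hsa-miR-6777-3p: uCCACUCUccuggcccccag
hsa-miR-6746-5p: cCGGGAGAaggagguggccugg
hsa-miR-6746-3p: cAGCCGCCgccugucuccacag

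MIR6777 was at 18.6, 23.2 and 22.0 CPM in chromatin and 2.15, 1.27 and 0.9 in nucleoplasm (log2 change 3.86, SE 0.38, adjusted p = 7.56e-07), and MIR6746 at 24.9, 33.5 and 33.5 against 2.60, 1.81 and 3.20 (3.59, SE 0.27). The groups were far apart for both. The assembled transcripts counted under these names had estimated lengths of 2652 and 3977 bases and no Ensembl transcript of their own, so the values count longer RNA that covers the hairpin and its surroundings, not a mature miRNA. Of the 37 miRNA genes tested, whose annotations span 56 to 114 bases, 29 lie within another gene on the same strand, as do 20 of the 26 that rose.

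Loci of the ribosomal DNA type on the short arm of chromosome 21 held some of the largest changes. ENSG00000280800 (chr21:8210384-8211306) was at 170.3, 174 and 223 CPM in chromatin and had no count in any nucleoplasm library, which is at least 675-fold higher against a floor of 3 counts per library. ENSG00000281181 was at 1214, 1686 and 1561 against 2.60, 5.43 and 12.1, ENSG00000273739 on an unplaced contig at 8879.8, 11261 and 10265 against 12.9, 27.9 and 27.3, and ENSG00000280614 was reversed, at 737, 237 and 2479 against 7625, 25077 and 16482 CPM. These annotations are near-identical copies, and reads may be assigned to one or the other. Summed over the 5 loci of 21p, a sum chosen after their values were seen, chromatin libraries held 14316 to 25703 CPM and nucleoplasm libraries 13833 to 43855, with overlap. The most abundant RNA by TPM, ENSG00000280441 (0.50, adjusted p = 0.5), and 5_8S_rRNA (0.18, adjusted p = 0.823) did not differ beyond their spread.

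Transcripts of the same gene separated by processing state. At the level of assembled transcripts, 3106 of 26389 tested (11.8%) were higher in chromatin and 4784 (18.1%) lower. Transcripts that Ensembl lists as retaining an intron were higher in 220 of 547 cases (40.2%) and lower in 13, with a median log2 change of 1.16. Transcripts listed as coding were higher in 6.66% and lower in 31.2%, with a median of -0.54, and newly assembled isoforms of known genes were higher in 17.0% and lower in 5.37%. Listed antisense transcripts were higher in 7 of 151 cases (4.64%) and lower in 5, with a median of -0.02. Listed intergenic lncRNA transcripts were higher in 6 of 139 (4.32%) and lower in 8, with a median of -0.09. The rise of lncRNA gene sums was thus not seen in these listed transcripts. Within genes that had both kinds, the retained-intron transcript had the higher log2 change in 343 of 373 genes (92.0%), by a median of 1.63, and the new isoform exceeded the listed coding one in 1899 of 2707 (70.2%), by 0.71. The division of reads between isoforms of a gene is an estimate.

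Examples were taken from the retained-intron transcripts with the most counts, and are not given in order of level. In CDK5RAP3, the retained-intron transcript was at 311 ± 28.8 CPM in chromatin and 28.3 ± 2.47 in nucleoplasm (SD, n = 3; log2 change 3.46, SE 0.45, adjusted p = 0.000247), while the coding transcript was at 30.1 ± 5.90 and 35.8 ± 3.81 (-0.25, adjusted p = 0.361). In SNRNP70, a protein of the U1 spliceosome particle, the values were 363.8 ± 64.2 and 87.8 ± 5.13 for the retained intron (2.05, SE 0.22) and 111 ± 20.2 and 138 ± 16.1 for the coding transcript (-0.31, adjusted p = 0.231). WDR6, a partner of a tRNA methyltransferase, had opposite calls: its retained-intron transcript rose (1.64, SE 0.28) and its coding transcript fell (-1.69, SE 0.24). DDX5, an RNA helicase, had 1 retained-intron transcript that rose (1.73, SE 0.40), another that did not pass (0.77, adjusted p = 0.0594; 0.92 and 0.00573 with DESeq2) and a coding transcript that fell (-1.23, SE 0.20). Not all followed: in WSB1 (-0.05, adjusted p = 0.944) and ARGLU1 (0.40, adjusted p = 0.496), the retained-intron transcripts with the most counts were at like levels in both fractions. Next in level came the DDX5 transcript that did not pass, then those of DDX39B (0.27, adjusted p = 0.226) and LAMA1 (1.14, adjusted p = 0.146). Neither of the latter passed, so the transcripts called higher were not the most abundant ones.

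The share of counts in listed retained-intron transcripts was 2.21, 2.19 and 2.41% in the chromatin libraries and 0.605, 0.543 and 0.569% in the nucleoplasm libraries. New isoforms took 29.8% ± 1.23 against 16.9% ± 1.08, listed coding transcripts 57.4% ± 2.12 against 74.8% ± 1.93, and transcripts listed for nonsense-mediated decay 0.61% ± 0.0258 against 0.251% ± 0.00946 (SD, n = 3). None of these classes overlapped between the fractions, and each had the smallest exact permutation p the design allows, 0.1.

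**Figure D3:**
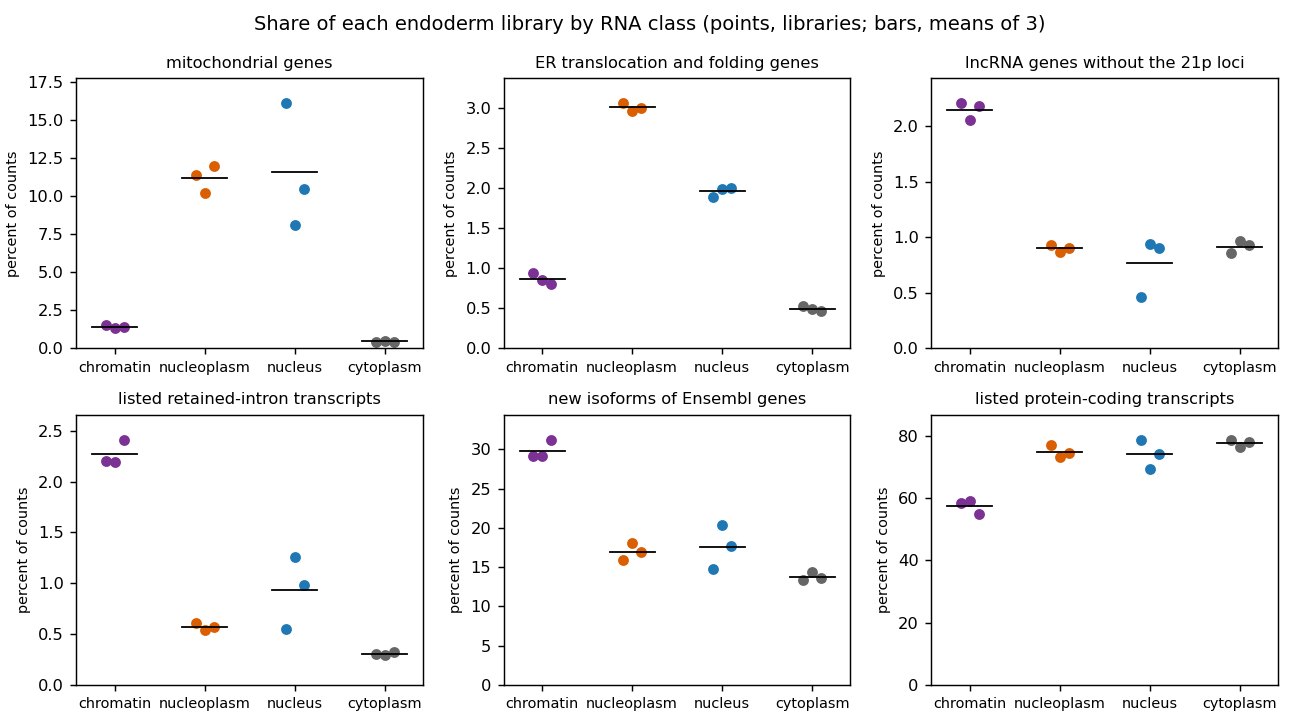
Percent of counts taken by 6 RNA classes in each endoderm library of chromatin, nucleoplasm, nucleus and cytoplasm; points are libraries and bars the means of 3. Mitochondrial RNA is near 1.41% in chromatin and 11.2% in nucleoplasm, and retained-intron transcripts near 2.27% and 0.572%.

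In 274 of 12651 genes (2.17%) the gene sum hid transcripts called on both sides; without nucleoplasm replicate 2 there were 159 such genes, and with DESeq2 465. Where lengths could be estimated, the chromatin-side transcripts were the longer ones in 222 of 270 genes (82.2%), by a median of 582 bases. Of 14385 listed transcripts, 69.8% had an estimated length within 10% of the listed one. ACADVL, a mitochondrial enzyme of fatty acid oxidation, had a new isoform of about 3006 bases at 280.6, 329 and 367 CPM in chromatin and 10.9, 9.70 and 11.5 in nucleoplasm, and a listed coding transcript with no count in chromatin and 36.9, 38.8 and 37.5 CPM in nucleoplasm. TCIRG1, a subunit of the proton pump of osteoclasts, had a new isoform of about 3016 bases at 22.5, 25.8 and 12.9 against 0, 1.72 and 0 CPM and a listed coding transcript of about 2706 bases at 0.995, 0.493 and 0 against 27.5, 32.3 and 22.8. ARVCF, a catenin, showed the same split between new isoforms of about 5493 and 3736 bases, the first of which was not called without nucleoplasm replicate 2 (adjusted p = 0.0531) or chromatin replicate 1 (adjusted p = 0.0527). By estimated length, the longer transcript was on the chromatin side in each of these 3 genes. In the other 3 pairs followed the lengths do not settle it. PAN2 had about 4587 and 4576 bases. PWWP3A had estimates of 4277 bases on the chromatin side and 4268 on the nucleoplasm side, but the latter transcript is listed with 1018. The TIAL1 transcript on the nucleoplasm side was estimated at 1981 bases but is listed with 5072, against 2310 on the chromatin side. At the level of the gene sum the first 3 rose: ACADVL (3.16), TCIRG1 (2.61) and ARVCF (2.63).

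Among coding genes, calls in chromatin went with transcript GC and intron length. Over 8 bins of transcript GC, from 31.8 to 40.1% in the lowest and from 61.4 to 74.6% in the highest, the share called higher was 4.75% in the first bin and 46.6% in the last, and the share called lower went from 38.3% to 13.2%. With total counts the share called higher went from 15.2% to 69.7%. By median intron length, 50.4% of genes in the shortest bin (introns under 340 bases) were higher and 21.4% lower, against 6.95% and 40.5% in the longest. Genes with 1 to 4 exons were higher in 7.27% and lower in 43.4% of cases, and genes with 23 exons or more in 31.0% and 23.9%. GC and intron length go together across the genome. Among genes of the highest GC quartile, 55.4% with the shortest introns and 25.5% with the longest rose, and among genes with the shortest introns 8.18% of the lowest GC quartile rose. Among genes of the lowest GC quartile, 48.2% with the shortest introns and 40.9% with the longest were lower (16.4% and 16.4% with total counts), and 8.18% and 3.85% higher, so the lower share did not grow with intron length there. In the next quartile 46.5% and 47.1% were lower and 16.5% and 6.62% higher. These are descriptions over genes, which are not replicates. MAMDC4 has a median intron of 109.5 bases, COL7A1 of 119 and PHF1 of 136, whereas the median intron of LUM is 3098 bases and of HAPLN1 14193.

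**Figure D4:**
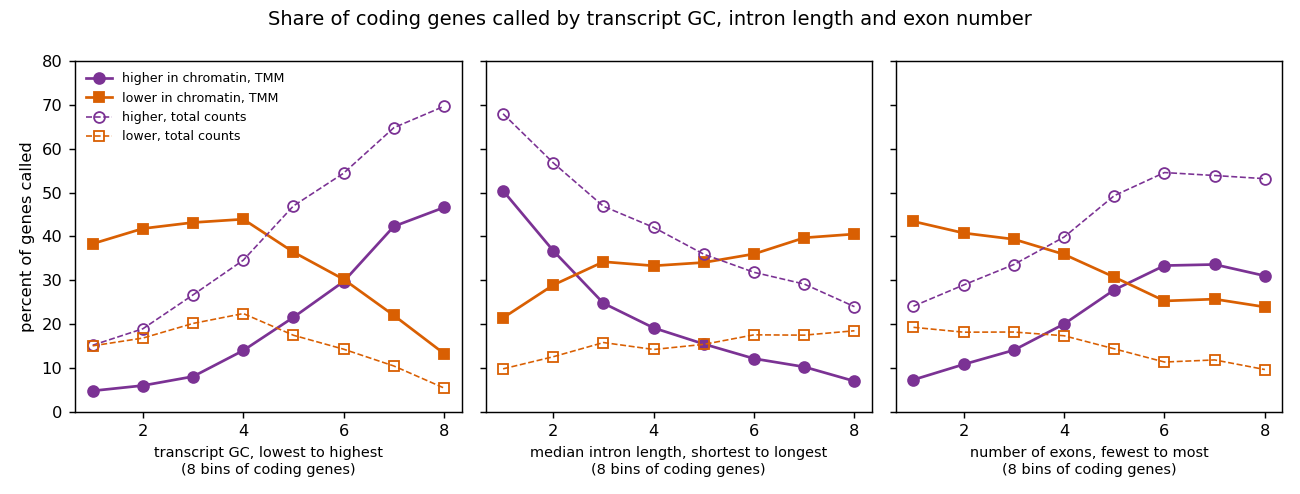
Percent of coding genes called higher (circles) or lower (squares) in endoderm chromatin than in nucleoplasm over 8 bins of transcript GC, median intron length and exon number; filled symbols and solid lines are TMM scaling, open symbols and dashed lines total counts. The share called higher rises with GC and falls with intron length under both scalings.

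The membrane and secretory lists (matrix, adhesion, SLC, Eph and endoplasmic reticulum) were also read within bins of GC. Of their 321 coding members, 65.1% were lower and 9.66% higher (44.2% and 19.3% with total counts). In each GC quartile, from the lowest to the highest, 71.7%, 86.7%, 68.2% and 41.0% of members were lower, against 39.4%, 42.2%, 32.2% and 16.7% of other coding genes. With total counts the shares in the first 3 quartiles were 43.4%, 68.7% and 50.6%, against 15.4%, 19.8% and 14.8%, and 19 of 100 members were lower in the highest, against 7.49%. Averaged over counts, transcript GC was 53.1% ± 0.207 in chromatin and 51.3% ± 0.172 in nucleoplasm (SD, n = 3), so a GC-dependent step of library making and a difference between fractions cannot be told apart here. Over the autosomes, the shares called higher were largest on 16 (36.6%), 22 (35.4%), 17 (32.1%) and 19 (30.7%), and lowest on 5 (13.5%) and 4 (13.7%).

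Undifferentiated H1 cells (hPSCs) and ectoderm, each with 3 chromatin and 3 nucleoplasm libraries, were set against endoderm by a test of the difference between changes, over 11280 genes in all 3 tables. Each table has its own set of transcript models, named by cell type, so a difference between cell types and one between sets of models cannot be told apart. The change in endoderm differed from that in hPSCs for 4190 genes (37.1%), of which 2436 lay below it, and from that in ectoderm for 3658 (32.4%), of which 2031 lay below it. Among the hPSC chromatin libraries, replicate 3 stood apart: across genes, log2(CPM + 1) values correlated at 0.956 and 0.959 with those of the other 2, which correlated with each other at 0.995, against 0.983 or more in the other groups. Without it 5515 genes differed from hPSCs, and 4082 of the 4190 were called in the same direction. Below hPSCs then lay 12 mitochondrially encoded mRNAs and 32 endoplasmic reticulum, 40 matrix, 39 adhesion and 65 ribosomal protein genes, each no fewer than with it, as given next. The median change of all genes was near 0 in each cell type (-0.04, -0.01 and -0.02). Mitochondrially encoded mRNAs had a median change of -3.64 in endoderm, -1.38 in hPSCs and -1.99 in ectoderm, and 11 and 10 of 13 differed. For the endoplasmic reticulum list the medians were -1.89, -0.62 and -0.78, and 28 and 30 of 36 differed. Matrix genes (38 of 46) and adhesion genes (36 of 52) also lay below hPSCs. Ribosomal protein genes lay below hPSCs in 54 of 85 cases but below ectoderm in 5, with 5 above. All 3 CLK kinases lay above both other cell types.

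**Figure D5:**
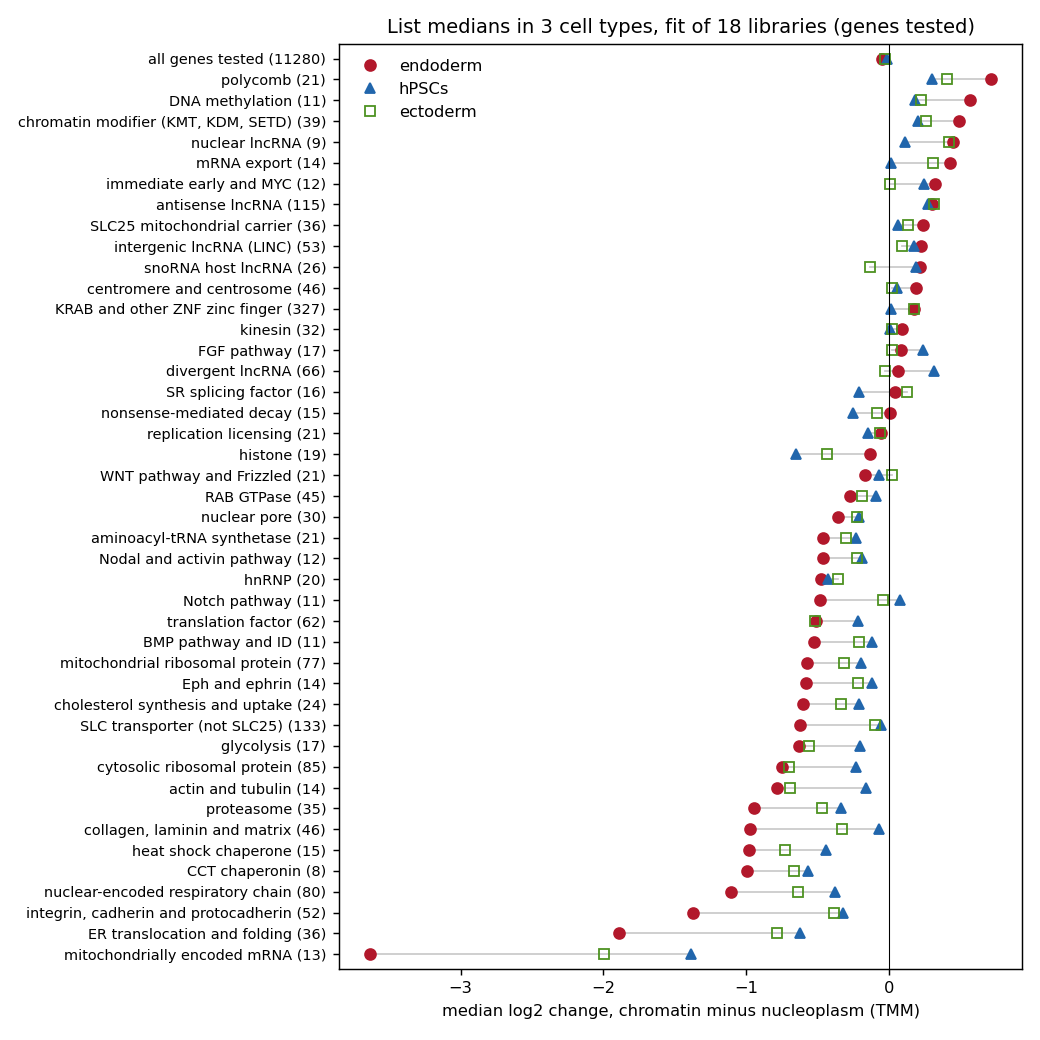
Median log2 change (chromatin minus nucleoplasm, TMM) of each gene list in endoderm, hPSCs and ectoderm, from a fit of 18 libraries. Mitochondrially encoded mRNAs and the endoplasmic reticulum list lie furthest to the left in endoderm, at -3.64 and -1.89, and all genes lie near 0 in each.

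Single genes with some of the largest differences between the cell types are given next. RN7SL1 had a log2 change of 2.22 (SE 0.58) in endoderm and -4.75 (SE 0.57) in hPSCs, a difference of 6.97 (SE 0.80, adjusted p = 2.98e-06), with the uncertainty over its copies noted above. MIR34AHG, the host transcript of a p53-induced miRNA, had 1.91 in endoderm and -1.68 in hPSCs. PCYOX1, a lysosomal oxidase, had -2.03 (SE 0.12) in endoderm and 0.80 (SE 0.11) in hPSCs, a difference of -2.83 (SE 0.16, adjusted p = 1.06e-08). Against ectoderm, BDH2, a cytosolic dehydrogenase, had 2.22 (SE 0.11) in endoderm and -0.32 (SE 0.11), and NUCB2 had -4.07 and -1.35. MFAP4, a microfibril protein, was at -2.24 in endoderm and 1.18 in ectoderm.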

How the data were processed

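RNA of endoderm chromatin and nucleoplasm was sequenced in 3 libraries each. The authors deposited transcript counts and TPM; STAR, RSEM and hg38 are named per the submitters' processing notes, with no versions. The deposited files hold the authors' estimated counts from RSEM as whole numbers; how they were made whole is not given in the sources used here. The deposited tables name transcripts separately for each cell type. Deposited counts were summed per Ensembl gene, and transcripts with no Ensembl gene, 1.09 to 5.98% of counts in these 6 libraries, were left out. Genes were filtered (filterByExpr, minimum count 10), scaled by TMM and tested with edgeR 4.0.16 quasi-likelihood over the 12 endoderm libraries, contrast chromatin minus nucleoplasm, with Benjamini-Hochberg adjustment at 0.05 (R 4.3.3). Differences between cell types used 18 libraries. The authors' TPM were tested as log2(TPM + 1) with limma 3.58.1 as an alternative; DESeq2 1.42.0 was another. Scripts were tested on simulated data. One column of the ectoderm table, 1 in all, matched no sample and was not used.

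Genes named were the 12 with the largest change in each direction (mean of 10 CPM or more, no overlap, called under both scalings), per list the 2 highest in level and the extremes in change, 6 per direction for each difference between cell types, the 6 highest in TPM, the 6 gene pairs with transcripts on both sides, and identity genes with MALAT1, NEAT1 and KCNQ1OT1; others named were chosen after their values were seen. Some genes that this rule names are not reported here. Members and lists were chosen with earlier results of these data known. Names matched GENCODE 29 for 97.8% of tested genes. Same-numbered libraries did not deviate together, so no pairing was used. Intervals and floors of 3 counts cover counting error only.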

Additional observations from a re-analysis of the deposited data

Results flagged for a closer look

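Each value here is a log2 change (chromatin minus nucleoplasm) in endoderm less that in another cell type, tested by edgeR's quasi-likelihood interaction term over 11280 genes, with 4190 genes called against hPSCs (5515 without hPSC chromatin replicate 3) and 3658 against ectoderm. Cell type and set of transcript models cannot be told apart in them.

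Against hPSCs, the membrane or mitochondrial genes PCYOX1 (-2.83), MT-ATP6 (-2.67) and MT-ND4 (-2.44) lay below. RGPD5 (-3.02) also did, with near-identical copies in the genome; it was not called with DESeq2 (adjusted p = 0.147). RN7SL1 (6.97), MIR34AHG (3.59) and NPIPA7 (3.38) lay above. Among loci with only an identifier, the differences were -9.07 for ENSG00000276965, -6.35 for ENSG00000280614, 11.85 for ENSG00000280800, 7.29 for ENSG00000280441 and 6.65 for ENSG00000278996. ENSG00000276965 turned to 0.49 without hPSC chromatin replicate 2, and ENSG00000280441 to -0.97 without hPSC nucleoplasm replicate 2. ENSG00000280800 was not called without hPSC nucleoplasm replicate 3 (adjusted p = 0.0683).

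Against ectoderm, MFAP4 (-3.43), the endogenous retroviral gene ERVH48-1 (-3.06), the neuropeptide gene NTS (-2.79), the exchange factor RASGRF2 (-2.79) and NUCB2 (-2.72) lay below, as did ENSG00000280614 (-9.44). GUSBP17 (7.62), TSPEAR-AS2 (3.47), NPEPPSP1 (2.55), BDH2 (2.55), ENSG00000278996 (3.60) and ENSG00000258728 (2.33) lay above. Without ectoderm nucleoplasm replicate 3, GUSBP17 was at 2.32 (adjusted p = 1) and RASGRF2 at -2.18 (adjusted p = 0.106). ENSG00000258728 was not called with DESeq2 (adjusted p = 0.101).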

How the results depend on the processing

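No call in either direction went the other way in any alternative fit of gene counts; with the authors' TPM, 2 genes called lower were called higher. Genes called higher numbered 5382 with total counts, 5430 with the authors' TPM and 1643 with the 2-fold rule; genes called lower numbered 1739, 1727 and 2246, and all calls 3889 with the 2-fold rule. Leaving out 1 library at a time gave 5941 to 6350 genes called, 2497 to 2728 higher, 3351 to 3622 lower, 6294 to 7131 transcripts, 159 to 225 genes with transcripts on both sides (465 with DESeq2), and 3690 to 5515 and 3126 to 3646 differences from hPSCs and ectoderm. As shares of the authors' TPM, the chromatin minus nucleoplasm difference in percentage points was -21.9 for mitochondrial genes (-9.77 by counts), -1.33 for the endoplasmic reticulum list (-2.15), -2.67 for membrane and secretory lists (-7.16), 1.15 for lncRNA (1.25), -27.3 for listed coding (-17.5), 1.20 for retained-intron (1.70) and 14.6 for new isoform transcripts (12.9). Without 1 library at a time these were -10.3 to -9.39, -2.18 to -2.12, -7.50 to -6.69, 1.22 to 1.29, -18.4 to -16.3, 1.63 to 1.74 and 12.2 to 13.4. Over the 13 alternative fits other than total counts and TPM, the endoplasmic reticulum list had 34 to 35 genes lower and mitochondrially encoded mRNAs 13; with total counts these were 31 and 13.

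The sign turned for FOXA2 (0.53 with total counts, 0.52 with TPM), JARID2 (0.19, 0.24), LAMA1 (0.44, 0.89) and POU5F1 (0.066, 0.078), for HAND1 with TPM (0.018), for the SNRNP70 coding transcript with total counts (0.46), and for the differences from hPSCs of ENSG00000276965 (-9.64 to 0.49) and ENSG00000280441 (-0.97 to 7.87) over fits without 1 library. The cause was not tested, beyond the shift of 0.62 that total counts add to every gene. With the replicate number as a block, 6539 genes were called (2790 higher, 3749 lower), 6983 transcripts, 215 genes on both sides, and 4051 and 3415 differences; same-numbered libraries had correlations of deviations of -0.03, -0.07 and -0.02, so the numbers were not taken as pairs. Depth limits the low genes, such as LEFTY2 and PAX6.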
